A study of Mus musculus with 8 samples.

Results

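The 50 genes described here encode proteins that build ribosomes in the nucleolus, from transcription of the ribosomal RNA (rRNA) by RNA polymerase I to the modification, cutting and assembly of the subunit precursors. They are the rows of the deposited table of raw gene counts whose gene symbol is on a fixed list of 50 names. All 50 were found, each once, among 54532 genes. By textbook role they fall into 7 classes: 3 proteins of box C/D small nucleolar ribonucleoproteins (snoRNPs), 4 of box H/ACA snoRNPs, 3 abundant nucleolar phosphoproteins, 16 factors of the small subunit processome and 40S assembly, 11 of 60S assembly, 6 of rRNA base modification and 7 of RNA polymerase I and its initiation factors.

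RNA was sequenced from brain tissue of male mice 3 months of age, in 4 libraries labelled Nsun5-KO and 4 labelled wild type (WT). The labels name no other allele, strain or treatment, and animals of both groups were anaesthetised with 2% pentobarbital sodium at 50 mg/kg before the brain was taken. The labels do not say how the Nsun5 allele was made. The protocol speaks of 5 littermate mice per genotype and does not tie a library to an animal, so p-values measure the spread between these libraries, which may be technical.

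Ribosome production starts when RNA polymerase I copies the rDNA repeats into a long precursor, which carries the small subunit rRNA and most of the large subunit rRNA. Box C/D and box H/ACA snoRNPs, guided by small nucleolar RNAs (snoRNAs), place ribose methyl groups and pseudouridines on it, and stand-alone enzymes add base modifications at single sites. The small subunit processome folds and cuts the early precursor, while other factors assemble the large subunit. Nsun5 belongs to the stand-alone enzymes and places 5-methylcytosine on the large subunit rRNA, so its loss acts on the product of the pathway these genes serve. All cells of the brain need the pathway, and it is especially active in growing cells.

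Several of the genes also carry within them genes for the snoRNAs that guide the modification. A snoRNA gene lay inside 8 of the 50 genes on the same strand (16%), against 1.18% of 22046 protein-coding genes in the deposited annotation. That background includes genes with few counts here, and the share among genes of similar level was not computed. The hosts were Nop56, Nop58, Dkc1, Ncl, Wdr43, Tsr1, Gnl3 and Taf1d, with 29 snoRNA genes in all and 8 of them in Taf1d. The box C/D snoRNAs printed here show the boxes that name their class, whose particle includes Nop56, Nop58 and fibrillarin. The capitals mark box C (TGATGA) in the first 20 bases and box D (CTGA) in the last 20 bases. Of the 29 snoRNA genes, 11 in 6 hosts hold both in that form. The sequences are from GENCODE M21 transcripts (mm10), written 5′ to 3′ as DNA letters.
Snord110, inside Nop56, chr2:130275506-130275573, plus strand: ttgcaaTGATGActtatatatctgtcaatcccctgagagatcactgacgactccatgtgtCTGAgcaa
Snord11, inside Nop58, chr1:59704790-59704873, plus strand: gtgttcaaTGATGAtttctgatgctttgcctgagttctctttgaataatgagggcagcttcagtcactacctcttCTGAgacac
Snord82, inside Ncl, chr1:86356261-86356330, minus strand: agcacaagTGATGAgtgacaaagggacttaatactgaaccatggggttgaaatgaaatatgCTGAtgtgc
Snord92, inside Wdr43, chr17:71631281-71631365, plus strand: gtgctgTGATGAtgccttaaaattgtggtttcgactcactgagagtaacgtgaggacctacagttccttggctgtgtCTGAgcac
Snord69, inside Gnl3, chr14:31014287-31014366, minus strand: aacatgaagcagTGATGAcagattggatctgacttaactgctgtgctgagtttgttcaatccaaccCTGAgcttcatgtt

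The snoRNAs themselves were hardly counted in these libraries: 6 of the 29 genes had any count. The exceptions with more than a handful were both inside Tsr1, where Snord91a had 65 to 98 counts and Gm22771 had 23 to 63 counts per library. All 8 inside Taf1d share exonic bases with it on the same strand and had 0 counts. How reads shared by a host and its snoRNA were counted is not stated, so these counts do not measure snoRNA levels. Whether the counts inside Tsr1 came from snoRNA or host was not tested.

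The 8 libraries held 15642086 to 17829523 counts. The count of Nsun5 did not separate the genotypes: it was 102, 124, 83 and 110 in replicates 1 to 4 labelled Nsun5-KO, against 91, 82, 103 and 109 in WT replicates 1 to 4 (log2 fold change 0.13, SE 0.15, edgeR adjusted p = 0.817). The gene count thus did not bear out the genotype labels, and groups are named here by label. Cell type genes differed between the groups: the summed level of 8 myelin genes was 4577 to 6292 CPM (counts scaled to library size) in libraries labelled Nsun5-KO and 7010 to 7654 CPM in WT, with all 8 below WT, and that of 4 neuron genes was 4922 to 5410 CPM in libraries labelled Nsun5-KO and 4075 to 4532 CPM in WT, with all 4 above WT. Sums of 4 microglia genes (173 to 190.1 CPM labelled Nsun5-KO, 189.1 to 203 CPM in WT) and 4 astrocyte genes (772 to 983 CPM labelled Nsun5-KO, 789 to 1068 CPM in WT) overlapped. Genes of tissue at the edge of a brain dissection also varied, with 9 hypothalamic genes summing to 4.61 to 10.4 CPM in libraries labelled Nsun5-KO and 7.77 to 122 CPM in WT, and 5 ependymal genes to 9.62 to 19.1 CPM labelled Nsun5-KO and 20.99 to 33.99 CPM in WT. Choroid plexus genes summed to 51.2 to 1177 CPM labelled Nsun5-KO and 306 to 1159 CPM in WT, and 4 cortical genes to 1307 to 1725 CPM labelled Nsun5-KO and 992 to 1284 CPM in WT. Of 4 cerebellar genes, Gabra6 had 0 to 30 counts per library, Pcp2 0 to 19, Cbln3 3 to 49 and Cbln1 112 to 518. The design text names the whole brain, and whether cerebellum was included was not tested. EdgeR called 0 genes of these lists. The part of these shifts in the values below was not tested, and in bulk tissue fewer cells of a type and less RNA per cell cannot be told apart.

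None of the 50 genes differed between the genotypes at an adjusted p below 0.05, and their differences were small. All 50 passed the low-count filter, with 83 to 5809 counts per library. EdgeR's quasi-likelihood test called 0 members, as it called 0 of 16062 genes (0%; smallest adjusted p among members 0.432), and DESeq2 also called 0 members while calling 93 genes (0.647% of those it adjusted). At an unadjusted p below 0.05, edgeR had 2 members higher in libraries labelled Nsun5-KO (5.3% of all genes tested) and 0 lower (5.05%). That is 4% of the members, against 10.4% of all genes in either direction. The count was 0 with replicate 3 labelled Nsun5-KO left out, 1 with its replicate 2, WT replicate 2 or WT replicate 3 left out, and 4 with WT replicate 4 left out.

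The members lay on both sides of WT, 29 above and 21 below, and the share above was 58% against 48.6% of all genes tested. The median log2 fold change (labelled Nsun5-KO over WT) was 0.024 over the members and -0.0055 over all genes tested. The fold changes ran from -0.15 for Npm1 to 0.295 for Polr1b. Their median size, without regard to sign, was 0.066, compared with 0.091 over the 10849 tested genes in the same range of mean level and 0.12 over all genes tested. The 95% interval lay inside a 1.5-fold change in either direction for 49 of the 50 members (66.3% of all genes tested), so larger differences were outside the interval for every member except Dimt1. The share of all counts that fell on the 50 genes was 0.217% to 0.227% in libraries labelled Nsun5-KO and 0.219% to 0.234% in WT.

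**Figure D1:**
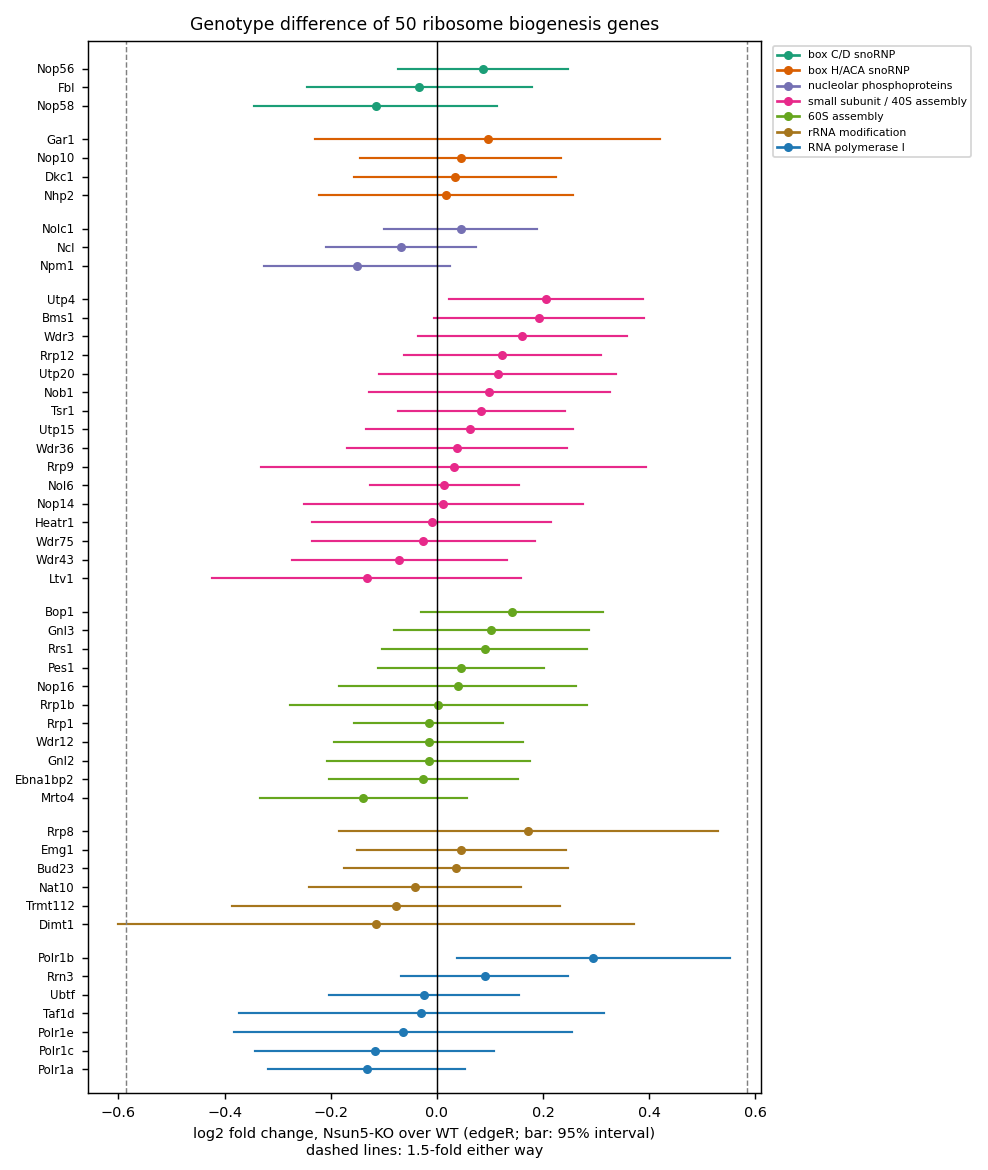
Log2 fold change of each of the 50 genes (x axis, libraries labelled Nsun5-KO over WT; point: edgeR estimate, bar: 95% interval, n = 4 libraries each), grouped and coloured by role, with dashed lines at a 1.5-fold change in either direction. The intervals of Polr1b and Utp4 lie right of 0, the other 48 include 0, and the interval of Dimt1 alone crosses a dashed line.

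RNA polymerase I genes held the largest difference of the list. Polr1b, the smaller of the pair of large catalytic subunits (ENSMUSG00000027395, chromosome 2, 129100995 to 129126594), had 16.5, 16.8, 20.1 and 16.3 CPM in replicates 1 to 4 labelled Nsun5-KO, against 12.4, 16.03, 12.9 and 15.4 CPM in WT replicates 1 to 4. Every library labelled Nsun5-KO was above every WT library, although replicate 4 labelled Nsun5-KO and WT replicate 2 lay close together. The means were 17.4 ± 1.79 CPM labelled Nsun5-KO and 14.2 ± 1.77 CPM in WT (SD, n = 4 each; exact two-sided permutation p = 0.0286, the smallest this design can give). On the log2 scale the difference was 0.295 (SE 0.12, 95% interval 0.037 to 0.55), with an edgeR adjusted p of 0.432. Groups without overlap occurred in 2 of the 50 members (4%), both higher in libraries labelled Nsun5-KO, and in 5.7% of all genes tested (2.99% higher and 2.71% lower).

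Polr1a, the largest subunit and Polr1b's partner at the active site, did not share that direction. It had 30.1, 30.1, 33.5 and 32.9 CPM in replicates 1 to 4 labelled Nsun5-KO, against 33.3, 39.2, 33.8 and 32.4 CPM in WT, and the groups overlapped (log2 fold change -0.13, SE 0.085, edgeR adjusted p = 0.628). Rrn3, the factor that makes the polymerase ready to initiate, had 66.2, 70.9, 71.7 and 69.9 CPM in libraries labelled Nsun5-KO, against 71.3, 67.7, 61.7 and 61.2 CPM in WT (0.090, SE 0.072, adjusted p = 0.706). WT replicates 1 and 2 lay inside the range of the libraries labelled Nsun5-KO. Ubtf, which binds along the active rDNA, had 143, 136, 132 and 136 CPM in libraries labelled Nsun5-KO, against 119.7, 135, 147 and 156 CPM in WT. WT replicate 1 was the lowest of the 8 libraries and WT replicates 3 and 4 were the highest, and the fold change was -0.024 (SE 0.082). The remaining genes of the class were Polr1c, a subunit shared with RNA polymerase III (-0.12), Polr1e, of the polymerase's initiation subcomplex (-0.064), and Taf1d, of the promoter selectivity factor SL1 (-0.029). Over the class, 2 members lay above and 5 below WT (median -0.029), and Polr1b and Rrn3 were those above.

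**Figure D2:**
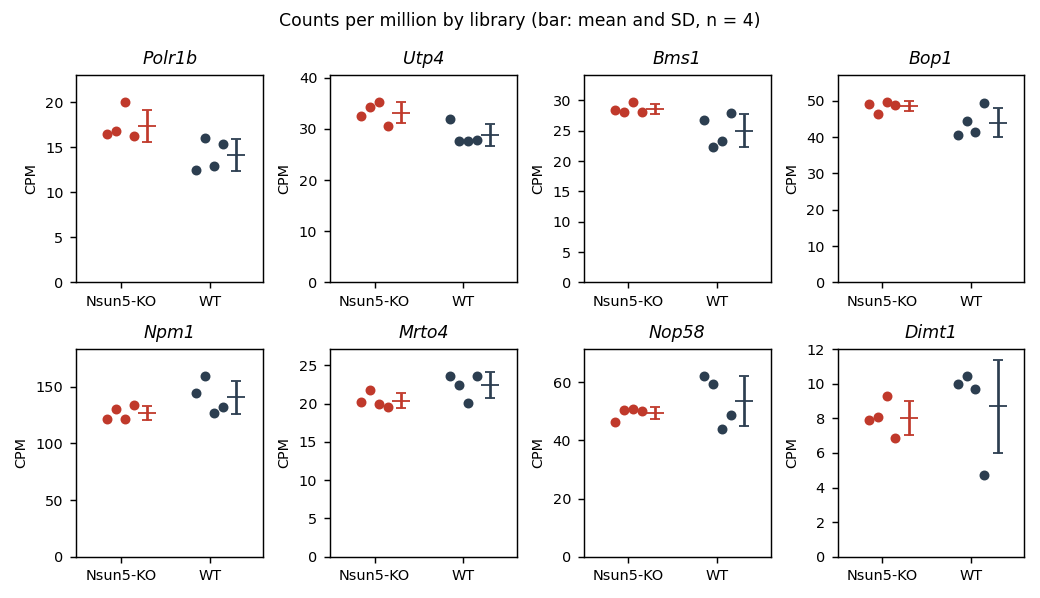
CPM (y axis from 0) in each library of 8 genes with small p or wide spread, libraries labelled Nsun5-KO left and WT right; points are replicates 1 to 4 in order, bars show mean and SD (n = 4). Polr1b and Bms1 separate the groups, and the WT libraries spread widest, on the log2 scale, in Dimt1 and Nop58. On that scale the WT range exceeds the fold change between the groups in all 8 genes.

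The genes of the box C/D particle lay on both sides of WT, with small differences. Fbl encodes fibrillarin, the methyltransferase of the particle, and Nop56 and Nop58 are its paired scaffold proteins. Nop56 had 54.3, 56.3, 58.2 and 52.4 CPM in replicates 1 to 4 labelled Nsun5-KO, against 51.0, 55.9, 47.8 and 53.6 CPM in WT (log2 fold change 0.088, SE 0.074). Nop58 had 46.3, 50.3, 50.6 and 50.0 CPM in libraries labelled Nsun5-KO, against 62.1, 59.2, 43.9 and 48.5 CPM in WT (-0.12, SE 0.11). For Nop58 the 4 libraries labelled Nsun5-KO fell between WT replicates 1 and 2, which were high, and WT replicate 3, which was low. Fbl had 21.2, 24.4, 20.1 and 21.2 CPM in libraries labelled Nsun5-KO, against 21.2, 22.5, 20.4 and 24.8 CPM in WT (-0.033, SE 0.097). The edgeR adjusted p was 0.723 for Nop56, 0.753 for Nop58 and 0.936 for Fbl.

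Box H/ACA genes were all slightly above WT, with fold changes of 0.017 to 0.096 (log2), and none had an interval that left out 0. The class median of 0.040 moved with single libraries: it was 0.0041 with WT replicate 1 left out, 0.024 with WT replicate 2, 0.018 and 0.014 with replicates 1 or 2 labelled Nsun5-KO and 0.10 with WT replicate 4 left out, and -0.065 with WT replicates 1 and 2 both left out. Dkc1 encodes dyskerin, the pseudouridine synthase, at 0.034 (SE 0.088). Gar1, a core protein that binds dyskerin, had 12.1, 10.5, 9.76 and 9.64 CPM in replicates 1 to 4 labelled Nsun5-KO, against 8.31, 8.59, 9.86 and 12.5 CPM in WT (0.096, SE 0.15; 0.021 to 0.23 with single libraries left out). Nop10, the smallest core protein, had 29.0, 33.3, 32.5 and 30.0 CPM in libraries labelled Nsun5-KO, against 28.6, 28.5, 29.8 and 34.1 CPM in WT (0.045, SE 0.087). Nhp2, which binds the guide RNA, had 33.2, 29.6, 28.5 and 29.0 CPM in libraries labelled Nsun5-KO, against 24.0, 29.6, 30.1 and 35.0 CPM in WT (0.017, SE 0.11). In all of these 3 genes WT replicate 4 was the highest of the WT libraries and the groups overlapped. The mean of the 4 genes by library, on the log2 CPM scale relative to the WT mean, ran from -0.0031 to 0.13 labelled Nsun5-KO and from -0.18 to 0.20 in WT.

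The abundant nucleolar phosphoproteins included the lowest fold change of the list. Npm1, nucleophosmin, which chaperones late precursors, had 122, 130.3, 121 and 134 CPM in replicates 1 to 4 labelled Nsun5-KO, against 144, 159.5, 127 and 132 CPM in WT. WT replicates 1 and 2 were above the other 6 libraries, while WT replicates 3 and 4 lay among the libraries labelled Nsun5-KO. The fold change was -0.15 (log2, SE 0.081, 95% interval -0.33 to 0.024, edgeR adjusted p = 0.546), and it was -0.090 with WT replicate 2 left out and -0.033 with both high WT libraries left out. Npm1 has processed pseudogenes, so its count is uncertain. Ncl, nucleolin, which binds the nascent rRNA precursor, had 312, 301, 300.1 and 329.6 CPM in libraries labelled Nsun5-KO, against 338, 338, 305 and 321 CPM in WT (-0.068, SE 0.065, adjusted p = 0.767). Nolc1, a snoRNP chaperone, was at 0.045 (SE 0.066). 

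Small subunit processome and 40S assembly genes had 12 of 16 members above WT (median 0.050, log2), with 1 higher at an unadjusted p below 0.05. That 1 gene is 6.25% of the class, near the 5.3% of all genes tested. Utp4, a WD-repeat protein of the first complex to bind the precursor, had 32.6, 34.2, 35.3 and 30.6 CPM in replicates 1 to 4 labelled Nsun5-KO, against 31.9, 27.6, 27.7 and 27.7 CPM in WT. WT replicates 2 to 4 were almost equal and below all libraries labelled Nsun5-KO, and WT replicate 1 lay inside their range. The difference was 0.21 (log2, SE 0.084, 95% interval 0.024 to 0.39). By edgeR the adjusted p was 0.436, and an exact permutation test gave 0.0571. Bms1, a GTPase known from yeast to be needed for cutting the precursor, had 28.4, 28.1, 29.8 and 28.1 CPM in libraries labelled Nsun5-KO, against 26.7, 22.2, 23.2 and 27.9 CPM in WT. The groups did not overlap, by a margin of less than 1 CPM, and the difference was 0.19 (SE 0.091, 95% interval -0.0054 to 0.39, adjusted p = 0.487; exact permutation p = 0.0286).

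Nol6 and Tsr1, the genes of this class named for the highest level per length, had groups that overlapped. Nol6, whose yeast counterpart is Utp22, had 107, 108, 116 and 116 CPM in replicates 1 to 4 labelled Nsun5-KO, against 111, 112, 104 and 116 CPM in WT (log2 fold change 0.014, SE 0.065). Tsr1, a factor of the late 40S precursor, had 43.3, 40.7, 46.5 and 41.2 CPM in libraries labelled Nsun5-KO, against 39.2, 42.0, 40.2 and 40.6 CPM in WT (0.084, SE 0.072). Tsr1 shares 32.3% of its exonic bases with Srr on the opposite strand, and the library kit does not mark strand. Partners of Utp4 in the same early complex were Utp15 at 0.062, Heatr1 at -0.0099, Wdr43 at -0.071 and Wdr75 at -0.025, all with intervals that include 0. Wdr3 and Wdr36, which in yeast belong to a later-joining complex, were at 0.16 and 0.038. The rest of the class, namely Rrp12 (0.12), Utp20 (0.11), Nob1, the nuclease that frees the end of the small subunit rRNA (0.099), the U3 snoRNP protein Rrp9 (0.032), Nop14 (0.012) and the export factor Ltv1 (-0.13), had intervals that include 0.

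Genes of 60S assembly were split, 6 above and 5 below WT (median 0.0026, log2). Bop1, which forms the PeBoW complex with Pes1 and Wdr12, had 49.1, 46.4, 49.7 and 48.9 CPM in replicates 1 to 4 labelled Nsun5-KO, against 40.6, 44.5, 41.5 and 49.4 CPM in WT. WT replicate 4 reached the libraries labelled Nsun5-KO and the other 3 lay below them (0.14, SE 0.079, edgeR adjusted p = 0.56). Pes1 was at 0.045 and Wdr12 at -0.015, and whether the 3 partners differ was not tested. Mrto4, whose yeast counterpart holds the place of the ribosomal stalk protein during assembly, had 20.2, 21.8, 19.9 and 19.6 CPM in libraries labelled Nsun5-KO, against 23.6, 22.4, 20.02 and 23.6 CPM in WT (-0.14, SE 0.090, adjusted p = 0.629). WT replicate 3 overlapped the other group.

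Rrp1, known from yeast as a 60S factor, had the highest level per length of the list, and its libraries of both groups overlapped. It had 304, 302, 277 and 303 CPM in replicates 1 to 4 labelled Nsun5-KO, against 291, 292, 297 and 319 CPM in WT (log2 fold change -0.015, SE 0.065, 95% interval -0.16 to 0.13). Its relative Rrp1b was at 0.0026 (SE 0.13). The GTPases Gnl3 (nucleostemin) and Gnl2 were at 0.10 and -0.016, Rrs1 at 0.091, Nop16 at 0.039 and Ebna1bp2 at -0.026, all with intervals that include 0.

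The rRNA modification enzymes are the nearest functional relatives of Nsun5 in the list, and none had an interval that left out 0. Their fold changes ran from -0.11 to 0.17 (log2) with a median of -0.0025, 3 above and 3 below WT. Bud23, which places 7-methylguanosine on the small subunit rRNA, lies on chromosome 5 (135052957 to 135064959), as Nsun5 does (135369953 to 135376805). It had 20.4, 19.9, 17.7 and 19.6 CPM in replicates 1 to 4 labelled Nsun5-KO, against 18.2, 17.6, 18.4 and 21.4 CPM in WT (0.037, SE 0.097, edgeR adjusted p = 0.928). Its activating partner Trmt112 had 19.5, 20.8, 14.4 and 23.1 CPM in libraries labelled Nsun5-KO, against 19.2, 19.8, 18.8 and 24.3 CPM in WT (-0.077, SE 0.14). Replicate 3 labelled Nsun5-KO was the lowest of the 8 and WT replicate 4 the highest. Trmt112 shares 33.2% of its exonic bases with Prdx5 on the opposite strand, which had 2519 to 3410 counts, and Bud23 shares 12.9% with Dnajc30, so part of their reads cannot be assigned to a strand.

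Nat10, the enzyme that places N4-acetylcytidine on the small subunit rRNA, had 22.0, 18.9, 19.8 and 21.5 CPM in replicates 1 to 4 labelled Nsun5-KO, against 20.2, 19.9, 21.5 and 23.0 CPM in WT (log2 fold change -0.042, SE 0.092). Emg1, a pseudouridine methyltransferase, had 27.2, 25.7, 23.1 and 28.0 CPM in libraries labelled Nsun5-KO, against 23.6, 24.7, 24.8 and 27.6 CPM in WT (0.046, SE 0.091). The groups overlapped almost fully in both. Rrp8, which methylates adenosine on the large subunit rRNA as Nsun5 methylates cytosine there, had 13.8, 10.9, 11.1 and 9.93 CPM in libraries labelled Nsun5-KO, against 8.20, 8.91, 10.1 and 13.3 CPM in WT. The highest library of each group stood above the lowest of the other, and the fold change was 0.17 (SE 0.16, edgeR adjusted p = 0.763). It was 0.070 with replicate 1 labelled Nsun5-KO left out, 0.080 and 0.11 with WT replicate 1 or 2 left out, and 0.33 with WT replicate 4 left out. Dimt1, the dimethyladenosine transferase of the small subunit rRNA, had 126, 137, 149 and 121 counts in libraries labelled Nsun5-KO, against 172, 163, 160 and 83 counts in WT, which is 8.04 ± 0.982 CPM labelled Nsun5-KO and 8.71 ± 2.69 CPM in WT (SD, n = 4 each). In CPM, WT replicate 4 was the lowest of all 8 libraries and the other WT libraries were the 3 highest (-0.11, SE 0.22, 95% interval -0.60 to 0.37). Dimt1 shares 31.9% of its exonic bases with Kif2a on the opposite strand, which had 1272 to 1786 counts, so its count is uncertain.

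**Figure D3:**
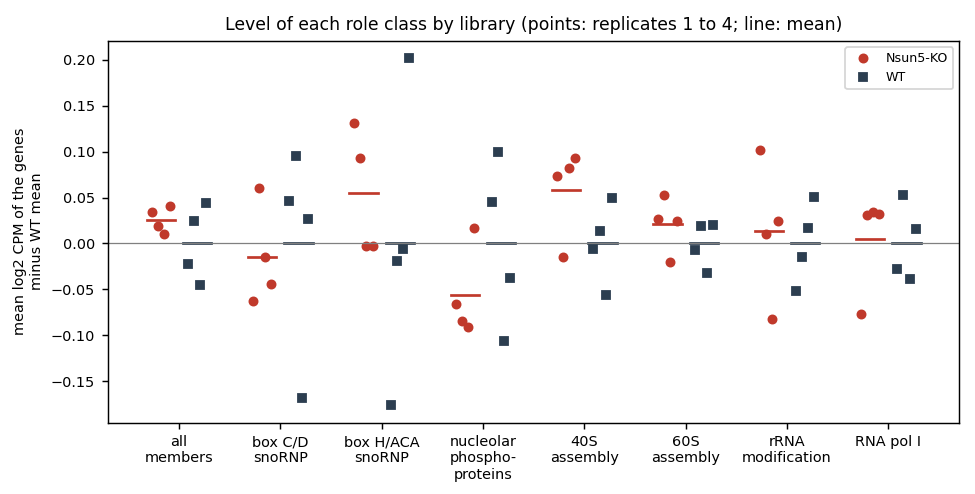
Mean log2 CPM of all 50 genes and of each role class in every library, relative to the WT mean (y axis); circles: libraries labelled Nsun5-KO, squares: WT, each in the order of replicates 1 to 4, short lines: group means. In every class the groups overlap, and the box C/D and H/ACA classes spread most among WT libraries.

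Seen by library, the whole set moved little. The mean over the 50 genes relative to WT was 0.034, 0.019, 0.0099 and 0.041 (log2 CPM) in replicates 1 to 4 labelled Nsun5-KO, against -0.022, 0.024, -0.046 and 0.044 in WT. WT replicate 2 lay inside the range of the libraries labelled Nsun5-KO and WT replicate 4 above it. The 40S class had a group mean of 0.058 ± 0.049 labelled Nsun5-KO, against an SD of 0.044 among WT libraries. Box H/ACA genes were at 0.055 ± 0.068 labelled Nsun5-KO, against an SD of 0.16 in WT. The distance from the WT mean was larger than both SDs in the 40S class, whose groups overlapped. In the box H/ACA class it was smaller than both. The phosphoproteins were at -0.056 ± 0.050 labelled Nsun5-KO, against an SD of 0.091 in WT (SD, n = 4 each). For each of the 50 genes the highest WT library exceeded the lowest by more (on the log2 scale) than the fold change between the groups. This held also for Polr1b and Bms1, whose groups did not overlap, so it does not show that a gene is unchanged. The range within a group was smaller among libraries labelled Nsun5-KO than in WT for 34 of the 50 genes, with medians of 0.20 labelled Nsun5-KO and 0.28 in WT. The same share over all genes tested was not computed, so this is not shown to be particular to the members.

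The rest of the pathway was read from another list of 93 ribosome biogenesis genes. Of these, 92 were tested, 47 above and 45 below WT (median 0.0058, log2). EdgeR called 0 of them. The unadjusted p was below 0.05 for 4, all higher in libraries labelled Nsun5-KO, which is 4.35% of the list against 5.3% of all genes tested in that direction and 10.4% in either. All 4 belong to 40S assembly, where they are 12.1% of 33 tested genes. That is above the 5.3% of all genes tested in that direction and near the 10.4% in either. Of the 33, 16 were above and 17 below WT. They were Krr1 at 0.22 (SE 0.080, edgeR adjusted p = 0.412), Diexf at 0.30 (SE 0.11, 0.412), Bysl at 0.20 (SE 0.082, 0.434) and Noc4l at 0.25 (SE 0.11, 0.458). Krr1, a small subunit processome protein, had 46.7, 51.6, 51.7 and 47.3 CPM in replicates 1 to 4 labelled Nsun5-KO, against 41.7, 46.6, 38.4 and 42.7 CPM in WT. Its groups did not overlap, with WT replicate 2 just below replicate 1 labelled Nsun5-KO. Groups without overlap occurred in 3 of the 92 genes (Krr1, Bysl and Noc4l; 3.26%), against 5.7% of all genes tested. The next smallest p was that of Riok1, a kinase of late 40S maturation, at -0.28 (SE 0.13, adjusted p = 0.489). The other 60S genes (38 tested, median 0.016), the other polymerase I genes (8 tested, -0.0082), the other snoRNP genes (9 tested, -0.00080) and the other modification genes (4 tested, -0.16) had none at an unadjusted p below 0.05.

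The level of the genes per length, in FPKM (counts divided by gene length and library size), spanned a wide range. The median over the 50 genes was 7.09 FPKM, against 4.55 FPKM over all genes tested. Rrp1 led with 88.3 ± 3.77 FPKM in libraries labelled Nsun5-KO and 88.9 ± 4.14 FPKM in WT, ahead of Npm1 with 47.2 ± 2.30 FPKM labelled Nsun5-KO and 52.3 ± 5.34 FPKM in WT (SD, n = 4 each). Ncl (31.0 FPKM over 8 libraries), Nop10 (27.5) and Nhp2 (25.9) followed, and the distance between Nop10 and Nhp2 was smaller than the SD of either among WT libraries (2.40 and 3.94 FPKM). By the deposited gene lengths polymerase I genes had the lowest class median, 2.77 FPKM, with Ubtf (20.9) and Rrn3 (15.5), its regulators, well above the catalytic subunits Polr1a (2.77) and Polr1b (2.70). Taf1d was the lowest of all at 1.08 FPKM by these lengths.

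That order depends on the length by which counts are divided. The deposited gene length joins all annotated exons, and for Taf1d, Nop58, Emg1 and Fbl it is 7.79, 6.28, 4.48 and 3.52 times the length of the principal coding transcript in GENCODE M21. Where several transcripts ranked equally, the longest was taken, which gave 8202 bases for Ncl and 10012 for Wdr12. A shorter transcript would give a higher level, and counts were not limited to the exons of the transcript taken. With the principal transcript length, an alternative chosen after seeing the data, Rrp1 (149 FPKM), Npm1 (81.2) and Ncl (38.5) stayed the 3 highest. Nop58 (29.8) and Ubtf (29.2) took the places of Nop10 and Nhp2. The box C/D proteins Nop58 (29.8 FPKM), Nop56 (28.4) and Fbl (18.2) then lay nearer to each other than by the deposited lengths, where they had 4.74, 13.0 and 5.18 FPKM. The low end changed as well: Taf1d was at 8.39 FPKM and Rrp1b the lowest at 1.97 FPKM. The polymerase I class median was then 8.39 FPKM, above the 8.06 FPKM of the small subunit class. That median is the value of Taf1d itself, the gene whose length changed most, so this order of the classes rests on it. Fold changes between the groups do not depend on this choice.

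**Figure D4:**
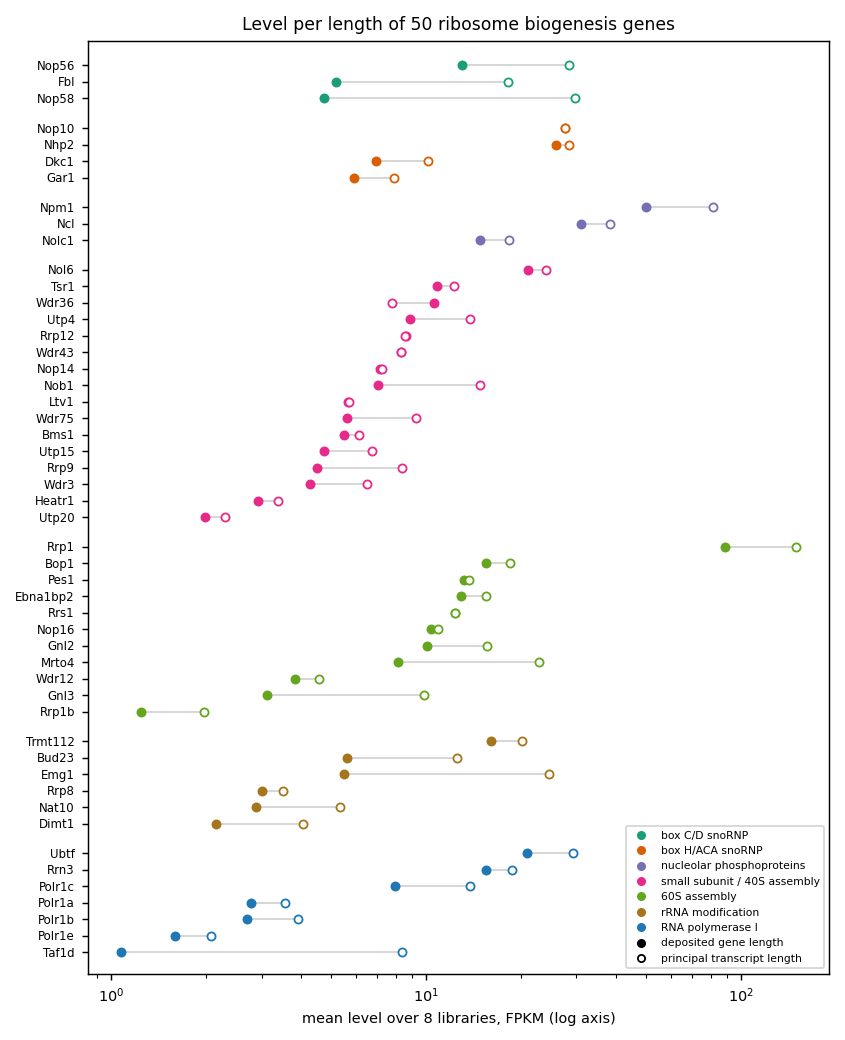
Mean level of each of the 50 genes over 8 libraries (x axis, FPKM, log scale), by role; filled circles use the deposited gene length, open circles the principal coding transcript, joined by a grey line. Rrp1, Npm1 and Ncl are highest on both scales, and Taf1d and Nop58 move furthest between them.

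The genes also differed in how far their libraries spread. The coefficient of variation of CPM over the 8 libraries ran from 4.18% for Rrp1 to 22.8% for Dimt1, with a median of 8.45%. Counting error alone gives 1.42% for Rrp1 and 8.49% for Dimt1, from their mean counts. The spread was more than 2 times the counting error in 20 genes and below it in 1, Gnl3 (5.16% against 5.58%). Rrp8 (18.1%), Rrp9 (17.7%), Taf1d (15.7%), Polr1b (15.1%) and Trmt112 (15.1%) spread most after Dimt1. Taken over both groups, this measure includes the difference between them, which was largest for Polr1b, so it is not the spread within a group. The U3 protein Rrp9 had 15.03, 14.1, 11.8 and 13.1 CPM in replicates 1 to 4 labelled Nsun5-KO, against 10.5, 10.2, 15.8 and 16.3 CPM in WT, so its WT libraries formed a low and a high pair around the others. WT replicates 1 and 2, the low pair, also stood apart from the other 6 libraries on the first principal component of all genes (-29.7 and -36, against 1.7 to 23.8), which held 25.7% of the variance.

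**Figure D5:**
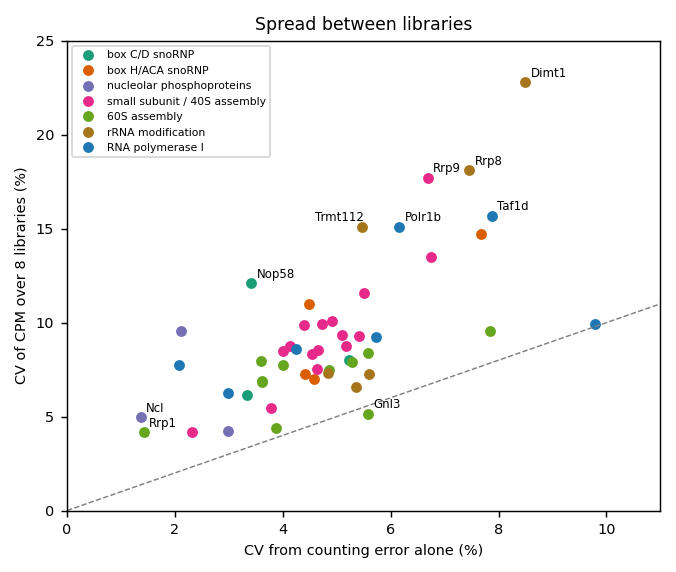
Coefficient of variation of CPM over the 8 libraries (y axis, percent) against that expected from counting error alone (x axis, percent) for each of the 50 genes, coloured by role; the dashed line marks equality. Rrp1 and Ncl sit at the low end, Dimt1 and Rrp8 at the high end, and only Gnl3 lies below the line.

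Promoter sequence was the last shared feature examined. RefSeq start sites (GRCm38.p6; 250 bases before to 50 bases after the start) were matched for 42 of the 50 genes. The E-box CACGTG, which reads the same on both strands and can be bound by Myc and clock factors among others, occurred in 7 of the 42 (16.7%), against 9.2% of 16497 protein-coding genes with such a window. The ETS core CCGGAAG, on either strand, occurred in 14 of the 42 (33.3%), against 13.3%. This motif was added after the data were seen, and its letters cannot overlap the E-box. Both backgrounds include genes that failed the low-count filter, which all members passed, and shares among genes of similar level were not computed. In the other list of 93 genes the E-box occurred in 16 of 77 promoters (20.8%) and the ETS core in 39 (50.6%). The E-box matches included 5 of 13 small subunit genes, among them Utp4, the member of that class with the smallest p. The other 4 are shown because of their matches, chosen after their values were seen. In all 5 the match starts 16 to 38 bases into the transcribed part, counted from 1 at the start site, and the capitals mark it.
Utp4, chr8:106893643-106893672, plus strand: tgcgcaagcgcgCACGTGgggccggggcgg
Wdr43, chr17:71616220-71616249, plus strand: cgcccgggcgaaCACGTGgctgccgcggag
Tsr1, chr11:74898092-74898121, plus strand: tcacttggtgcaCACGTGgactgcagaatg
Ltv1, chr10:13193092-13193121, minus strand: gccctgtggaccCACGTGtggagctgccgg
Utp20, chr10:88826765-88826789, minus strand: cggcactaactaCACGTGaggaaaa
The log2 fold changes of these 5 genes were 0.21 for Utp4, -0.071 for Wdr43, 0.084 for Tsr1, -0.13 for Ltv1 and 0.11 for Utp20, so genes with the match lay on both sides of WT. The 8 snoRNA host genes likewise had 4 above and 4 below WT, from -0.12 for Nop58 to 0.10 for Gnl3.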

How the data were processed

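Whole-number read counts per gene, not normalised, were deposited for 8 mouse brain libraries. Per the submitters' processing notes, reads were aligned with HISAT2 2.0.5 to mm10; the program that counted reads is not stated in the labels or headers. Total RNA (TRIzol, per the labels' protocols) went into NEBNext Ultra RNA libraries, a kit that keeps no strand information. In the deposited FPKM values each count is scaled by the length of the gene and by 1 factor per library; group means of FPKM were not used.

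EdgeR 4.0.16 (R 4.3.3) was run on the whole count table: filterByExpr by group (16062 genes), trimmed mean of M values scaling, robust quasi-likelihood F test of genotype, Benjamini-Hochberg adjustment over all genes tested, calls at an adjusted p below 0.05. CPM uses the scaled library sizes. Single values were compared by an exact two-sided permutation test over 70 labelings (smallest p 0.0286). No covariate was used. The median of all fold changes was -0.0055.

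Alternatives were DESeq2 1.42.0, limma 3.58.1 on voom values with sample weights and on FPKM (pseudocounts 1 and 0.1, log2), different scalings and low-count filters, the replicate number as a block, and libraries left out. The members, lists and libraries doubted were chosen with earlier results of these data known. Values in every library are given for members with an unadjusted p below 0.05 and for all rRNA modification genes. They are also given for the 2 members with the smallest p and the 2 with the highest FPKM of each role class. Rrp9 was added outside that rule, for its spread and with its values known. Other members were named for completeness. Shared exonic bases, snoRNA and transcript sequences came from GENCODE M21, in which 47 of the 50 members have the deposited start and end. The procedure was tested on simulated data. Protein sequences were not used here.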

Additional observations from a re-analysis of the deposited data

Results flagged for a closer look

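In 66 groups of 4 libraries (25 named genes, all members together and 7 role classes, in each genotype), 8 had a library far from the other 3, by a gap above Dixon's 95% critical value relative to the group's range; chance gives about 1 in 20. Among libraries labelled Nsun5-KO, replicate 3 was the highest for Polr1b (20.1 CPM) and Bms1 (29.8 CPM) and the lowest for Rrp1 (277 CPM), and replicate 1 was the lowest for Nop58 (46.3 CPM) and for the mean of the polymerase I genes (-0.077, log2 CPM relative to WT). Among WT libraries, replicate 1 was the highest for Utp4 (31.9 CPM), and replicate 4 was the highest for Trmt112 (24.3 CPM) and the lowest for Dimt1 (4.71 CPM). Without replicate 3 labelled Nsun5-KO, Polr1b was at 0.22 (log2), against 0.295 with it, and without WT replicate 4 Dimt1 was at -0.33, against -0.11 with it.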

How the results depend on the processing

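No member was called under any of the 21 alternatives run. The count over all genes was 93 with DESeq2, 68 with edgeR without a low-count filter, 0 to 2 with single libraries left out (2 without replicate 4 labelled Nsun5-KO) and 0 under every other alternative run. Members at an unadjusted p below 0.05 numbered 0 to 4 with single libraries left out, 0 without replicates 1 and 3 labelled Nsun5-KO, and 0 with the replicate number as a block. Samples with the same number did not deviate together (correlations of -0.21 to 0.063). No label ties a library to an animal, so this does not settle whether the numbers pair the samples. The block gave 0 called genes. The members' median log2 fold change was 0.0015 to 0.044 over all alternatives. Of 525 values of 25 named genes under alternatives, 496 kept their direction. The signs that changed were all of uncalled genes: Nhp2 (-0.0058) and Nol6 (-0.0098) with upper quartile scaling, which moved the median of all genes to -0.029, and Dimt1 (0.027) with voom. With single libraries left out, the ranges were -0.097 to 0.0196 for Fbl, -0.076 to 0.10 for Nhp2, -0.0144 to 0.034 for Nol6, -0.0324 to 0.018 for Rrp1, -0.0011 to 0.099 for Bud23, 0.021 to 0.23 for Gar1, 0.070 to 0.33 for Rrp8, -0.17 to 0.044 for Trmt112 and -0.093 to 0.030 for Ubtf. Without WT replicates 1 and 2, Nop58 was at 0.091, Nhp2 at -0.119, Nop10 at -0.037, Gar1 at -0.093, Bud23 at -0.042, Emg1 at -0.015, Dimt1 at 0.16 and Rrp8 at -0.0375. Without replicates 1 and 3 labelled Nsun5-KO, Fbl was at 0.0349, Nhp2 at -0.0214, Rrp1 at 0.0129 and Trmt112 at 0.0968. The cause of these changes was not tested. The SE of the members was 0.065 to 0.22 (log2), which limits the differences that 4 libraries a group can show.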

Other observations

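Rrp1 and nucleolin had overlapping counts: 4450 to 5344 counts per library labelled Nsun5-KO and 4548 to 5630 in WT for Rrp1, beside 4826 to 5809 labelled Nsun5-KO and 5048 to 5807 in WT for Ncl. No other gene shares exonic bases with Rrp1 in GENCODE M21.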
